A study of Mus musculus with 18 samples.

Results

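Mosaic neurosphere cultures, a mix of wild type and Pcdh19 knockout mouse neural cells, were set against wild type cultures at day 4 of differentiation. The comparison used 6 of the 18 arrays of the study, 3 mosaic and 3 wild type, chosen by their sample labels. The other 12 arrays held the Pcdh19 knockout cultures at day 4 and all 3 kinds of culture at day 0, undifferentiated, and served to estimate the spread and to place the mosaic values. All samples were labelled as total RNA of mouse neurospheres from female cells, and the labels give no strain, age, share of each genotype in the mix or treatment besides differentiation. The design text calls the 3 replicates of a group technical, so p-values measure only the spread between these samples, and 3 arrays a group limit the precision. Only probe sets with exactly 1 gene symbol were used, and where a gene had several, the one that averaged highest across all 18 arrays stood for it. This gave 22180 genes, of which 19016 lay above the 25th percentile of their array on at least 3 arrays and were tested. All values below are the deposited log2 expression values.

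Neurospheres are floating clusters of neural stem and progenitor cells that form neurons, astrocytes and oligodendrocytes once growth factors are withdrawn. PCDH19 is an X-linked protocadherin of the delta group, a calcium-dependent adhesion protein that works in cis with N-cadherin. In people, heterozygous loss of PCDH19 causes an epilepsy that affects mainly females, whose tissues are a mosaic of cells with and without the protein through X inactivation, while males without the protein in all cells are usually spared. A mixed culture models that mosaic state, and the comparison asks what it does to the expression program of differentiating cells.

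Pcdh19 itself was read first. It measured 6.54, 7.09 and 5.52 in mosaic replicates 1, 2 and 3, and 6.90, 6.98 and 6.81 in wild type replicates 1, 2 and 3. Mosaic replicate 2 lay above every wild type array, mosaic replicate 1 below every wild type array, and mosaic replicate 3 at the level of the knockout arrays, which measured 5.70, 5.53 and 5.86. The means were 6.38 ± 0.79 in mosaic and 6.90 ± 0.09 in wild type cultures (SD, n = 3 each), a log2 difference of -0.51 ± 0.26 (SE) with a limma adjusted p of 0.351. Without mosaic replicate 3 the difference was -0.08, and without mosaic replicate 2 it was -0.86. In such bulk samples fewer cells of a type and less RNA per cell cannot be told apart, and the part of Pcdh19 that was deleted is not given in the sources used here.

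The sample labels were also read against defining genes. The Y-linked genes Eif2s3y, Kdm5d and Uty ranked above at least 77.8% of the probe sets on each of the 18 arrays, and Xist, the RNA that coats the inactive X chromosome, measured 2.68 to 3.98 and ranked above no more than 31.2% of them. These levels go against the female label in all groups. Kdm5d, a Y-linked histone demethylase, measured 7.44, 7.84 and 7.62 in mosaic and 6.85, 7.35 and 7.08 in wild type replicates 1, 2 and 3, so that the groups did not overlap. The neural markers were high. Sox2, a stem cell factor, measured 10.72 to 10.90 in mosaic and 10.73 to 10.75 in wild type cultures. Olig2, a factor of the oligodendrocyte lineage, measured 11.94 to 12.04 in mosaic and 11.90 to 11.997 in wild type cultures. The astrocyte glutamate transporter Slc1a3 measured 11.63 to 11.89 in mosaic and 11.78 to 11.90 in wild type cultures.

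The mosaic arrays were the most spread of the day 4 groups. The median SD of a gene was 0.145 in mosaic, 0.134 in knockout and 0.130 in wild type cultures. Pairs of arrays within the mosaic or wild type group correlated across genes at 0.986 to 0.990, and pairs across those groups at 0.981 to 0.990, so that the ranges overlapped. In mosaic replicate 3, 42 genes lay at least 1 log2 unit above the mean of the other mosaic arrays and 34 at least as far below. In mosaic replicate 1, 23 genes lay that far above and 40 that far below, and in mosaic replicate 2 the numbers were 16 and 18. The 3 wild type arrays each had 9 to 18 such genes above and 16 to 19 below. Knockout replicate 1 had 42 above and 23 below, and knockout replicates 2 and 3 had 15 and 14 above and 17 and 19 below. Array weights estimated from the fit were 0.575, 1.37 and 0.639 for mosaic replicates 1, 2 and 3, and 0.606 for knockout replicate 1, so outlying arrays were not confined to the mosaic group.

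No gene passed the test between mosaic and wild type cultures at day 4. Of 19016 genes, 0 were called at an adjusted p under 0.05 in limma (0%), and the smallest adjusted p was 0.120. At an unadjusted p under 0.05 there were 3026 genes, or 15.9%, of which 1498 were higher and 1528 lower in mosaic cultures. The median standard error of a log2 difference was 0.126. Differences were small: 68 genes were at least 1.5-fold higher in mosaic cultures and 93 at least 1.5-fold lower. Leaving out mosaic replicate 1 gave 262 calls, leaving out wild type replicate 3 gave 3, and leaving out any other of the 6 arrays gave 0.

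Because no gene was called, gene groups are described by how many members had non-overlapping arrays. All 3 mosaic arrays lay above all 3 wild type arrays for 1829 genes, or 9.62% of those tested, and below them for 1625 genes, or 8.55%. Each share given for a gene list below is to be read against these. Both shares also changed with the level of expression, as the bins below show, so the level of a list matters too. Genes named below other than Pcdh19 were chosen after their values were seen.

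The difference moved with the level of expression. The genes were put into 4 bins of 4754 genes each by their mean over the 6 arrays. In the lowest bin, with values up to 4.71, the median difference was -0.13, and 98 genes lay above and 665 below wild type without overlap. In the highest bin, with values from 7.52, the median was 0.08, and 823 genes lay above and 106 below. All 3 mosaic arrays showed this slope, with medians of -0.06, -0.14 and -0.17 in the lowest bin and 0.03, 0.11 and 0.10 in the highest, for replicates 1, 2 and 3. Knockout against wild type, which uses the same wild type arrays, had medians of -0.12 and 0.06 in the lowest and highest bins, while mosaic against knockout had -0.01 and 0.01. After cyclic loess normalization the mosaic medians were -0.02 and 0.01 in the lowest and highest bins.

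**Figure D1:**
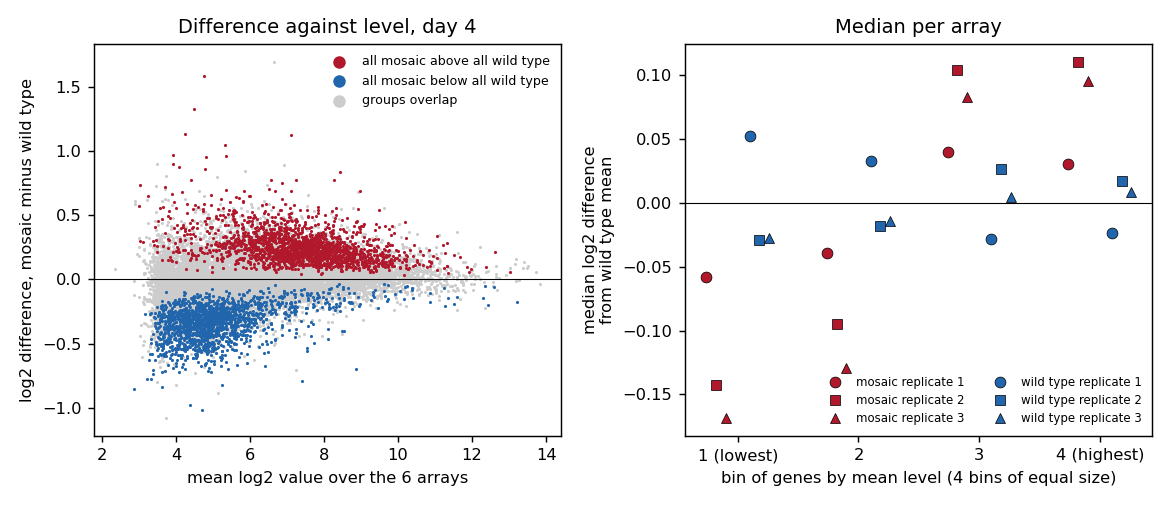
Left, log2 difference (mosaic minus wild type, day 4) of 19016 genes against their mean log2 value over the 6 arrays, with colours for genes whose arrays do not overlap between the groups. Right, median log2 difference from the wild type mean for each array in 4 bins of genes by level; each point is 1 array. Mosaic arrays lie below 0 for dim genes and above 0 for bright genes.

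Differences of at least 2-fold were found for 8 genes. The 6 higher in mosaic cultures were the ribosomal protein gene Rps13, the microRNA gene Mir186, the zinc finger gene Zfp972, the histone gene H4c8 and the small nucleolar RNA genes Snora34 and Snora15. The 2 lower were the odorant-binding protein gene Obp1b and the microRNA gene Mir1970, both X-linked. For Rps13 the difference of 1.70 was set by 1 array, since wild type replicate 3 measured 3.12 while the other wild type arrays measured 7.60 and 6.70 and the mosaic arrays 7.41, 7.12 and 7.98. Without wild type replicate 3 it was 0.36.

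Mir186 measured 5.54, 5.51 and 5.57 in mosaic replicates 1, 2 and 3, and 4.46, 3.42 and 3.97 in wild type replicates 1, 2 and 3. Every mosaic array lay above every wild type array, the log2 difference was 1.59 and the adjusted p 0.120, and the knockout mean was 5.01. The array cannot tell the mature microRNA from its precursor or from the transcript around it. Its mature arms are shown from RefSeq (GRCm38.p6, plus strand of chromosome 3, chr3:157544285-157544306 and chr3:157544324-157544345), with the seed, bases 2 to 8, in capitals. The seeds of the arms differ.
mmu-miR-186-5p: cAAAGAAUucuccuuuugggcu
mmu-miR-186-3p: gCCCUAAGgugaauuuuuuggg

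Zfp972, a zinc finger gene, had the largest non-overlapping difference among genes that are neither small RNAs nor predicted. It measured 5.03, 5.10 and 5.37 in mosaic replicates 1, 2 and 3, and 3.50, 3.73 and 4.27 in wild type replicates 1, 2 and 3. All mosaic arrays lay above all wild type arrays, and the knockout arrays lay between 4.60 and 5.06, also above them. The log2 difference was 1.33 ± 0.20 (SE) with an adjusted p of 0.120, and the call was made in 3 of the alternative settings, with variance trend and robust estimation (adjusted p = 0.0206), without wild type replicate 3 (0.0201) and without mosaic replicate 1 (0.0262). A second zinc finger gene, Zfp943, measured 6.09, 6.23 and 6.21 in mosaic and 5.47, 5.32 and 5.66 in wild type replicates 1, 2 and 3, a difference of 0.69. Both were higher without overlap.

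Hnrnpa3, which encodes an RNA-binding protein that packages and splices transcripts, measured 8.58, 8.65 and 8.74 in mosaic replicates 1, 2 and 3, and 7.74, 7.86 and 8.05 in wild type replicates 1, 2 and 3. The groups stood apart and were tight, with a log2 difference of 0.78 ± 0.13 (SE) and an adjusted p of 0.120, which was 0.0238 with variance trend and robust estimation. The knockout mean of 8.27 lay between them. The tubulin gene Tuba1b measured 5.10, 5.32 and 5.27 in mosaic and 4.24, 4.27 and 4.58 in wild type replicates 1, 2 and 3, a difference of 0.86. Srp54c, named for a subunit of the signal recognition particle, differed by 0.84, and by 0.55 without mosaic replicate 3. The semaphorins Sema3e and Sema3d, secreted cues that steer axons, were higher by 0.78 and 0.76, with mosaic replicate 3 the highest array for both, and without it the differences were 0.56 and 0.52. For H2-Q5, a class I histocompatibility gene, the difference was 0.77, but 0.34 as the mean of its 2 probe sets. Rabggtb, Esp38, Lss and H4c8 complete the 12 highest genes without overlap, leaving out small RNAs and predicted genes, with differences of 0.70, 0.72, 0.69 and 1.14. Esp38 was at 0.45 without mosaic replicate 2.

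Among the 12 lowest genes without overlap, again leaving out small RNAs such as Mir1970 and predicted genes, most were dim. Lactbl1, a gene related to bacterial lactamases, measured 4.895, 4.56 and 4.99 in mosaic replicates 1, 2 and 3, and 5.69, 5.45 and 5.79 in wild type replicates 1, 2 and 3. Its log2 difference was -0.83 ± 0.15 (SE) with an adjusted p of 0.120. Dapk2, a calmodulin-regulated death-associated kinase, measured 5.12, 5.01 and 5.05 in mosaic and 5.85, 5.65 and 5.78 in wild type replicates 1, 2 and 3. Both genes stood apart with little spread inside the groups. The complement protease gene C1ra differed by -0.72, the fatty acid receptor gene Ffar4 by -0.72 and the prion-like gene Prnd by -0.70. Klra5, Pfpl, Ly6a2, H2al3, Prss46 and Mrgprd differed by -0.85, -0.73, -0.72, -0.71, -0.69 and -0.69. Pfpl was at -0.46 without mosaic replicate 3 and Mrgprd at -0.43 without wild type replicate 2. Abca1 was the only bright gene of the 12, with a wild type mean above 9, and is described with the sterol genes.

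**Figure D2:**
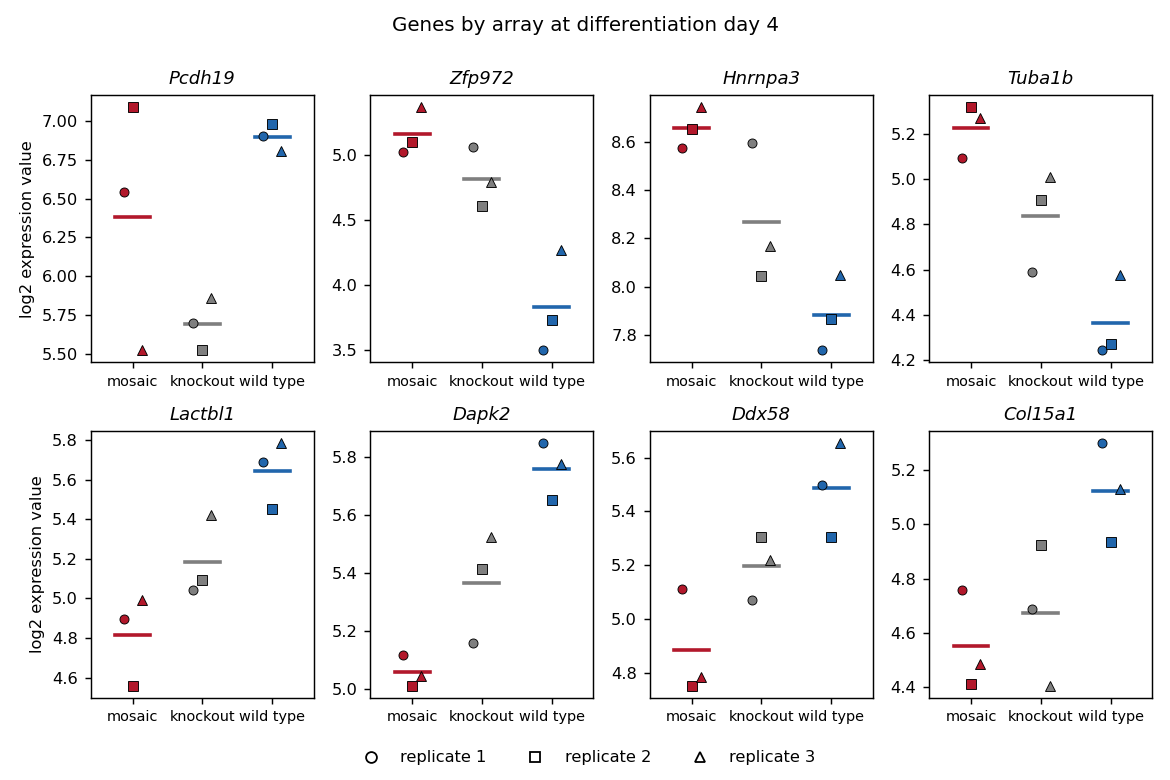
Log2 expression value by array for 8 genes at day 4, with mosaic, knockout and wild type cultures from left to right; symbols mark the replicate, bars the group mean, and each panel has its own axis. For all genes shown other than Pcdh19 the mosaic and wild type arrays do not overlap, and the knockout means lie between the mosaic and wild type means.

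Protocadherins and cadherins form the adhesion family of Pcdh19. Of 12 nonclustered protocadherins, 2 lay above wild type without overlap and 1 below, with a median difference of 0.0099 that was -0.04 with quantile normalization. Pcdh7 measured 7.97, 8.03 and 8.18 in mosaic and 7.79, 7.93 and 7.59 in wild type replicates 1, 2 and 3, and Pcdh9 differed by 0.17, and by 0.09 with quantile normalization. Pcdh20 measured 4.64, 4.31 and 4.66 in mosaic and 4.85, 5.07 and 4.87 in wild type replicates 1, 2 and 3, a difference of -0.39. These differences were small beside the spread of Pcdh19 itself.

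The clustered protocadherins give neurons surface identities through combinations of isoforms. Of 22 tested, out of 58 listed, 7 lay above wild type without overlap and 1, Pcdhb13, below. The median difference was 0.13, and 0.11 to 0.21 under the other normalizations, against 0.0067 over all genes. The list's median level was 6.15, in the bin from 5.98 to 7.52, where 702 of 4754 genes lay above and 181 below. All genes of that bin had a median difference of 0.08. Pcdhb2 measured 6.11, 6.11 and 6.17 in mosaic and 5.22, 5.93 and 5.88 in wild type replicates 1, 2 and 3, a difference of 0.45 that was 0.22 without wild type replicate 1. Pcdhb15 measured 6.44, 6.002 and 6.30 in mosaic and 5.64, 5.87 and 5.76 in wild type replicates 1, 2 and 3. The list's median was 0.15, 0.21 and 0.06 on the 3 mosaic arrays and -0.07, 0.01 and 0.04 on the 3 wild type arrays. Knockout against the same wild type arrays also had 7 above and 0 below, where 8.56% of all genes lay above and 8.27% below. The genes of these clusters are close copies, so probe sets may read more than 1 of them.

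Among 23 classical cadherins and catenins, 2 lay above and 4 below without overlap, with a median of 0.01 that was -0.02 with quantile normalization. Cdh10 differed by 0.27 and Cdh18 by -0.52. Cdh2, which encodes N-cadherin, the partner of PCDH19, measured 10.79, 10.96 and 10.67 in mosaic and 10.73, 10.78 and 10.87 in wild type replicates 1, 2 and 3, and the groups overlapped. The WAVE complex, which protocadherin tails bind to steer actin, had 2 of 11 members above and 1 below, with a median of 0.08.

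Genes of cholesterol and fatty acid synthesis had the largest share above wild type of all lists examined. Of 25 tested, 10 lay above wild type without overlap and 1, Fasn, below, and 23 of 25 differences were positive. The median difference was 0.33, and 0.26 to 0.40 under the other normalizations. The list's median level was 9.06, in the highest bin, where 823 of 4754 genes lay above and 106 below, with a median of 0.08. The pathway builds sterols from acetyl-CoA for membranes and myelin, and SREBP factors switch its genes on when sterols are scarce. Its median on the arrays was 0.05, 0.16 and 0.83 in mosaic replicates 1, 2 and 3, and 0.02, 0.02 and -0.02 in wild type replicates 1, 2 and 3. Mosaic replicate 3 thus stood far above the other mosaic arrays. Without it the median was 0.12, and 10 genes lay above and 2 below, where 14.5% of all genes lay above and 11.8% below with those 5 arrays.

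Lss, which closes squalene epoxide into lanosterol, measured 8.91, 8.79 and 10.29 in mosaic replicates 1, 2 and 3, and 8.66, 8.61 and 8.64 in wild type replicates 1, 2 and 3. Cyp51, the lanosterol demethylase, measured 9.35, 9.50 and 10.45 in mosaic and 9.29, 9.17 and 9.22 in wild type replicates 1, 2 and 3. In both, every mosaic array was above every wild type array, and mosaic replicate 3 was the highest by far. Ebp, a sterol isomerase gene on the X chromosome, measured 8.46, 8.41 and 8.97 in mosaic and 8.35, 8.11 and 7.70 in wild type replicates 1, 2 and 3. Insig1, which holds the SREBP machinery in the endoplasmic reticulum, measured 10.02, 10.18 and 11.003 in mosaic and 9.86, 10.01 and 9.97 in wild type replicates 1, 2 and 3. The log2 differences were 0.69 for Lss, 0.54 for Cyp51, 0.56 for Ebp and 0.45 for Insig1, with adjusted p-values of 0.244, 0.236, 0.163 and 0.244. Without mosaic replicate 3 they were 0.21, 0.20, 0.38 and 0.15.

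Other steps of the pathway also had positive differences, with Hsd17b7 at 0.54, Sqle at 0.44, Dhcr7 at 0.42, Sc5d at 0.42 and Fdft1 at 0.33, each without overlap. Without mosaic replicate 3 these were 0.18, 0.23, 0.19, 0.17 and 0.13. Hmgcs1, an early enzyme of the pathway, differed by 0.25, or 0.05 without that array, and its groups overlapped. Abca1, which exports cholesterol, measured 9.09, 9.04 and 7.38 in mosaic and 9.22, 9.15 and 9.25 in wild type replicates 1, 2 and 3, a difference of -0.70 that was -0.14 without mosaic replicate 3. Srebf1, which encodes an SREBP factor, measured 7.997, 7.71 and 7.39 in mosaic and 7.94, 8.13 and 7.97 in wild type replicates 1, 2 and 3, and its groups overlapped. Neither gene passed the test over all arrays, with adjusted p-values of 0.286 and 0.237. Without mosaic replicate 1, Srebf1 was called lower, at -0.47 with a limma adjusted p of 0.0471. Its difference ranged from -0.47 to -0.16 over single arrays left out.

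The promoters of the 4 sterol genes with the largest non-overlapping differences are shown because these genes were high on the same mosaic array. Each is the 250 bases before the start of the gene (RefSeq, GRCm38.p6), with the letters CCAAT, the box bound by the factor NF-Y, in capitals, or ATTGG where the box is on the other strand. Lss is on the plus strand at chr10:76531355-76531604, Ebp on the minus strand at chrX:8193513-8193762, Hsd17b7 on the minus strand at chr1:169969206-169969455 and Cyp51 on the minus strand at chr5:4104698-4104947.
Lss: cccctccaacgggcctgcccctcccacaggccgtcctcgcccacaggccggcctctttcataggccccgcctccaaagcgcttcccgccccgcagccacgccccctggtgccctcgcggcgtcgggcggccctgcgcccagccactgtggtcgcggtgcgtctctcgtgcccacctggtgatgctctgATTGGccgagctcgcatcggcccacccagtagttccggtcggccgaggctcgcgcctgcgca
Ebp: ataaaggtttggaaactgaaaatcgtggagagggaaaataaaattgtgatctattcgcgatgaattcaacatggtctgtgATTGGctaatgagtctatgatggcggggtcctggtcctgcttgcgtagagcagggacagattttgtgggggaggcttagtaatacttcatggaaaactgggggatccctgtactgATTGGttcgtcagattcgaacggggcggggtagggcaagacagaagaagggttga
Hsd17b7: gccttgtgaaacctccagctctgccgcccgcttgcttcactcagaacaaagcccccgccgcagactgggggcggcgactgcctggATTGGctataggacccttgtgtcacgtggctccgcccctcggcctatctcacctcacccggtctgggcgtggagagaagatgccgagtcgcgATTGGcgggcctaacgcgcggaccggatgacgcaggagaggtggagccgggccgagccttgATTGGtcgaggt
Cyp51: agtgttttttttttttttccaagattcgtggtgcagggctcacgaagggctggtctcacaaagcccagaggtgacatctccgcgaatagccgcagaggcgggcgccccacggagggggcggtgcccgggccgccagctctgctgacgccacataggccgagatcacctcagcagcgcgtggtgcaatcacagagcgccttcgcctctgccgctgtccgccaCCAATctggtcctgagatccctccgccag
The box lay 62 to 58 bases before the start in Lss and 29 to 25 before it in Cyp51, with 2 boxes in Ebp and 3 in Hsd17b7. Of the 25 genes, 20 had a promoter in the table, and 17 of these held CCAAT on either strand, which is 85%, against 37.5% of all genes there. The letters TCACNCCAC, a sterol regulatory element, were in 1 of the 20, against 1.22% of all genes. The 27025 genes behind these shares were not limited to the genes tested here or matched to the list by level. Why the shares differ was not tested. A match describes the letters in this window and is not a binding site.

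**Figure D3:**
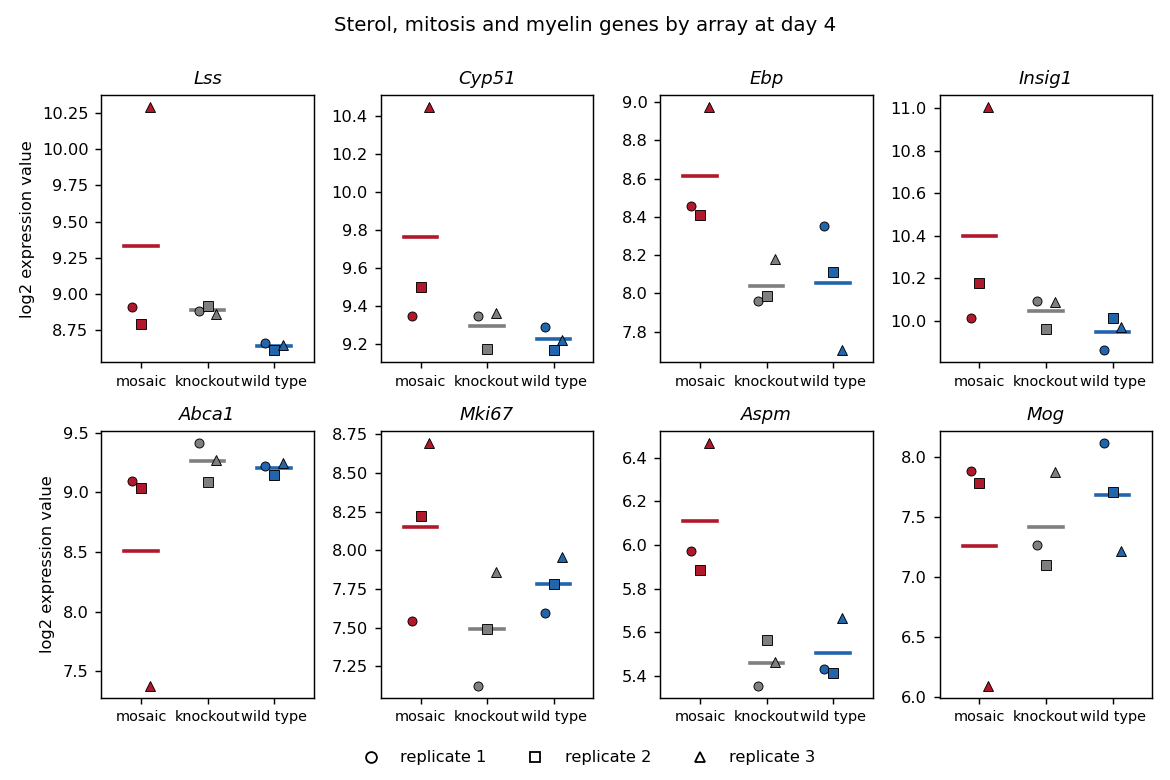
Log2 expression value by array for sterol genes (Lss, Cyp51, Ebp, Insig1, Abca1), mitosis genes (Mki67, Aspm) and the myelin gene Mog at day 4, with mosaic, knockout and wild type cultures from left to right; symbols mark the replicate and bars the group mean. Mosaic replicate 3 is the highest array for the synthesis and mitosis genes and the lowest for Abca1 and Mog.

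Genes of mitosis were the other list in which the mosaic arrays differed most from each other. All 27 tested had a positive difference, with a median of 0.30, yet only 2, Aspm and Kif20b, had arrays that did not overlap. The median on the arrays was -0.35, 0.44 and 0.83 in mosaic replicates 1, 2 and 3, and -0.17, 0.05 and 0.16 in wild type replicates 1, 2 and 3. By this median mosaic replicate 1 was below every wild type array and the other mosaic arrays were above every one. In knockout replicates 1, 2 and 3 it was -0.43, -0.15 and 0.02, so the median rose from replicate 1 to replicate 3 in all 3 groups of day 4. Aspm, a spindle pole protein of dividing neural progenitors, measured 5.97, 5.89 and 6.47 in mosaic and 5.43, 5.41 and 5.67 in wild type replicates 1, 2 and 3, a difference of 0.61 ± 0.13 (SE) with an adjusted p of 0.120. Mki67, the proliferation marker, measured 7.55, 8.22 and 8.70 in mosaic and 7.60, 7.78 and 7.96 in wild type replicates 1, 2 and 3. Top2a, which untangles DNA before division, measured 6.23, 7.35 and 7.79 in mosaic and 6.70, 6.999 and 7.19 in wild type replicates 1, 2 and 3. Both spanned the wild type values.

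Leaving out mosaic replicate 1, the lowest mosaic array by the mitosis median, brought part of the mitosis genes past the threshold. Wild type replicate 1, the lowest of its group by that median, was kept, so these calls rest in part on which array was removed. With the 17 arrays left, 138 of 19016 genes were called higher, or 0.726%, and 124 lower, or 0.652%. Of the 27 mitosis genes 9 were called higher and 0 lower, among them Bub1 at 0.85, Ndc80 at 0.84 and Kif23 at 0.79, which act in the spindle checkpoint, at the kinetochore and in cytokinesis. Without mosaic replicate 3 instead, the list's median was 0.03. For DNA replication and S phase 2 of 26 genes lay above and 0 below in the full comparison, with a median of 0.08. Histone genes had 4 of 14 above and 1 below with a median of 0.25, led by H4c8, which measured 4.30, 5.05 and 5.09 in mosaic and 3.70, 3.50 and 3.82 in wild type replicates 1, 2 and 3. The linker histone gene H1f5 measured 6.02, 6.15 and 6.79 in mosaic and 5.55, 5.77 and 5.68 in wild type replicates 1, 2 and 3, a difference of 0.65 that was 0.42 without mosaic replicate 3.

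Oligodendrocyte genes were bright in both groups and differed little. Of 22 myelin structural and oligodendrocyte genes, 4 lay above without overlap and 1, Tmem125, below, with a median of 0.17. On the arrays the median was 0.13, 0.18 and 0.15 in mosaic and 0.15, 0.05 and -0.17 in wild type replicates 1, 2 and 3, so the groups overlapped. The list's median level was 8.81, in the highest bin, where 823 of 4754 genes lay above and 106 below. The gap junction gene Gjc3 measured 9.36, 9.68 and 10.01 in mosaic and 9.29, 9.33 and 9.21 in wild type replicates 1, 2 and 3. Tspan2, a tetraspanin of myelinating cells, measured 8.97, 9.004 and 9.49 in mosaic and 8.90, 8.87 and 8.47 in wild type replicates 1, 2 and 3. Mbp, the myelin basic protein gene, measured 9.47, 9.38 and 9.61 in mosaic and 9.25, 9.06 and 9.20 in wild type replicates 1, 2 and 3. These 3 stood apart in the same direction. Without mosaic replicate 3 Gjc3 and Tspan2 differed by 0.25 and 0.24.

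Some myelin genes differed more among the mosaic arrays. Mog, a glycoprotein of the outer myelin surface, measured 7.89, 7.79 and 6.09 in mosaic replicates 1, 2 and 3, and 8.12, 7.71 and 7.22 in wild type replicates 1, 2 and 3. Ermn, a cytoskeletal protein of late oligodendrocytes, measured 7.80, 7.73 and 6.07 in mosaic and 7.79, 7.39 and 7.03 in wild type replicates 1, 2 and 3. Mosaic replicate 3 was the lowest of the 6 arrays for both. Their differences were -0.43 and -0.21 over all arrays and 0.15 and 0.36 without that array. Opalin, an oligodendrocyte membrane protein, had the largest positive difference of the list at 0.59, with 6.12, 5.82 and 6.98 in mosaic and 5.85, 5.76 and 5.54 in wild type replicates 1, 2 and 3, and overlapping groups. There mosaic replicate 3 was the highest array, and without it the difference was 0.25. Mag, an adhesion protein of the inner myelin membrane, was nearly equal on the mosaic arrays, at 10.46, 10.41 and 10.38, against 10.52, 10.22 and 9.77 in wild type replicates 1, 2 and 3. Myelin lipid enzymes had 3 of 14 above and 0 below with a median of 0.14. The median levels of these enzymes and of the progenitor genes that follow were 7.94 and 9.43, also in the highest bin. Of 20 progenitor genes 0 stood apart, and Pdgfra, the growth factor receptor of these progenitors, measured 10.82 to 10.99 in mosaic and 10.65 to 10.92 in wild type cultures.

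Astrocyte genes had 0 of 28 above and 3 below without overlap, and the median of -0.02 was 0.05 with a common array median and -0.09 with quantile and with cyclic loess normalization. The list's median level was 9.15, in the highest bin, where 823 of 4754 genes lay above and 106 below, with a median of 0.08. Gfap, the astrocyte filament gene, measured 6.78, 7.22 and 7.32 in mosaic and 6.60, 7.07 and 6.59 in wild type replicates 1, 2 and 3, with overlapping groups. Neural stem and radial glia genes had 1 of 26 above, Prom1, a membrane glycoprotein of stem cells at 0.43 (0.29 without mosaic replicate 3), and 1 below. Their median level of 7.84 was also in the highest bin.

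General neuron genes had 3 of 30 above and 2 below with a median of 0.01, and genes of synaptic vesicles and release had 2 of 25 above and 2 below with a median of 0.02. Their medians were 0.15 and 0.10 in mosaic replicate 1 and -0.10 and -0.18 in mosaic replicate 3. The vesicle protein gene Sv2a, the synaptic adhesion gene Lrrtm2 and the potassium channel gene Kcna4 were higher without overlap by 0.45, 0.42 and 0.48, though Kcna4 differed by 0.11 as the mean of its probe sets, and Sv2a and Lrrtm2 by 0.29 and 0.24 without mosaic replicate 3. Syt1, the calcium sensor of vesicle release, measured 8.83, 8.51 and 7.42 in mosaic and 8.09, 8.49 and 8.11 in wild type replicates 1, 2 and 3, and mosaic replicate 3 was the lowest array. Voltage-gated channel genes had 6 of 34 above and 1 below with a median of 0.02, and axon guidance genes 4 of 41 above and 1 below with a median of 0.04. With quantile normalization the medians of the vesicle and axon guidance lists were -0.06 and -0.0050.

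Genes of interneurons and their specification, DLX factors among them, had 0 of 22 above and 3 below, with a median of -0.20 that was -0.10 to -0.14 under the other normalizations. The list's median level was 5.24, in the second bin, where 206 of 4754 genes lay above and 673 below, with a median difference of -0.09. Dlx6, a homeobox factor of forebrain interneurons, measured 4.82, 4.55 and 4.73 in mosaic and 5.07, 5.14 and 5.04 in wild type replicates 1, 2 and 3. Gad1, which makes the transmitter GABA, measured 5.72, 5.35 and 5.55 in mosaic and 5.89, 5.89 and 5.83 in wild type replicates 1, 2 and 3. On the arrays the list's median was 0.01, -0.19 and -0.29 in mosaic replicates 1, 2 and 3. Intermediate progenitor and neuroblast genes had 0 of 23 above and 2 below, with medians of 0.13, -0.01 and -0.31 on those arrays.

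Signalling and stress lists had few members apart. Immediate early genes had 4 of 28 above and 0 below, led by Zfp36, an RNA decay factor, at 0.47. ERK feedback genes had 3 of 19 above and 0 below, and hypoxia and glycolysis genes 4 of 26 above and 1 below, led by the phosphofructokinase gene Pfkp at 0.49. The unfolded protein and amino acid response list had 4 of 28 above and 1 below, and ribosomal protein genes 1 of 24 above and 0 below. Tpm4, a tropomyosin of the actin cytoskeleton, differed by 0.50, but by 0.29 as the mean of its 2 probe sets. Within the mosaic group Slc7a11, the cystine transporter, measured 6.95, 7.75 and 8.97 in replicates 1, 2 and 3. The stress gene Nupr1 measured 4.70, 5.65 and 7.08 there, and the arginine transporter Slc7a3 3.85, 4.74 and 6.30. In wild type replicates 1, 2 and 3 Slc7a11 measured 7.09, 7.97 and 7.82, Nupr1 6.17, 5.90 and 5.96 and Slc7a3 4.48, 4.65 and 4.41, so that mosaic replicate 1 lay below and mosaic replicate 3 above every wild type array for all 3 genes. Txnip, a thioredoxin inhibitor that responds to glucose, was 5.62 in mosaic replicate 3, against 7.57 and 7.94 in the other mosaic arrays and 7.10 to 7.66 in wild type arrays.

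Collagen and interferon genes lay below wild type more often than above, at low levels of expression. Of 28 collagen chains 0 lay above and 8 below, with a median of -0.17 that was -0.10 to -0.14 under the other normalizations. Col15a1, a basement membrane collagen, measured 4.76, 4.41 and 4.49 in mosaic and 5.30, 4.94 and 5.13 in wild type replicates 1, 2 and 3. Col6a2 measured 5.09, 5.28 and 4.95 in mosaic and 5.74, 5.64 and 5.60 in wild type replicates 1, 2 and 3, and Col1a2 differed by -0.43. Of 27 interferon response genes 1 lay above and 6 below, with a median of -0.12 that was -0.05 to -0.07 under the other normalizations. Ddx58, which encodes the RNA sensor RIG-I, measured 5.11, 4.75 and 4.79 in mosaic and 5.50, 5.31 and 5.66 in wild type replicates 1, 2 and 3, and Ifi35 differed by -0.40. The median levels of the collagen and interferon lists were 5.59 and 4.89, both in the second bin. There 206 of 4754 genes lay above and 673 below, and the median difference of all genes was -0.09. The part of the slope with level in these counts was not tested.

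Markers of 4 other cell types were mostly dim, with median levels of 4.50 to 5.14 and median differences below 0. Those of Schwann and neural crest cells, with 1 of 7 above and 1 below, had a median difference of 0.09. The mural and fibroblast list also holds Pdgfra and Cspg4, genes of oligodendrocyte progenitors too, and Pdgfra was bright, at 10.65 to 10.99 over the mosaic and wild type arrays. Mural and fibroblast markers had 0 of 15 above and 4 below with a median of -0.27, endothelial markers 0 of 12 above and 3 below with a median of -0.19, microglial markers 1 of 16 above and 4 below with a median of -0.13, and ependymal markers 0 of 14 above and 3 below with a median of -0.12. With cyclic loess normalization these 4 medians were nearer 0, at -0.18, -0.09, -0.02 and -0.06. The endothelial, microglial and ependymal lists had median levels in the lowest bin. In the deposited values 98 of the 4754 genes there lay above and 665 below, with a median of -0.13. The mural list, at 5.14, was in the second bin, where 206 of 4754 lay above and 673 below, with a median of -0.09. Averaged over each list, mural levels were 5.51 to 5.62 in mosaic and 5.70 to 5.82 in wild type arrays. Endothelial levels were 4.45 to 4.65 in mosaic and 4.72 to 4.76 in wild type arrays. Microglial levels were 4.54 to 4.68 in mosaic and 4.66 to 4.82 in wild type arrays. Ependymal levels were 4.69 to 4.83 in mosaic and 4.84 to 5.01 in wild type arrays. Egfl7 of endothelium differed by -0.49, Csf1r and Fcrls of microglia by -0.34 and -0.41, and Spag6 of cilia by -0.57. Csf1r was at -0.17 without wild type replicate 2, and Spag6 at -0.32 as the mean of its 2 probe sets. A log2 scale has no 0 level, so none of these markers can be called absent, and their part in the differences above was not tested.

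**Figure D4:**
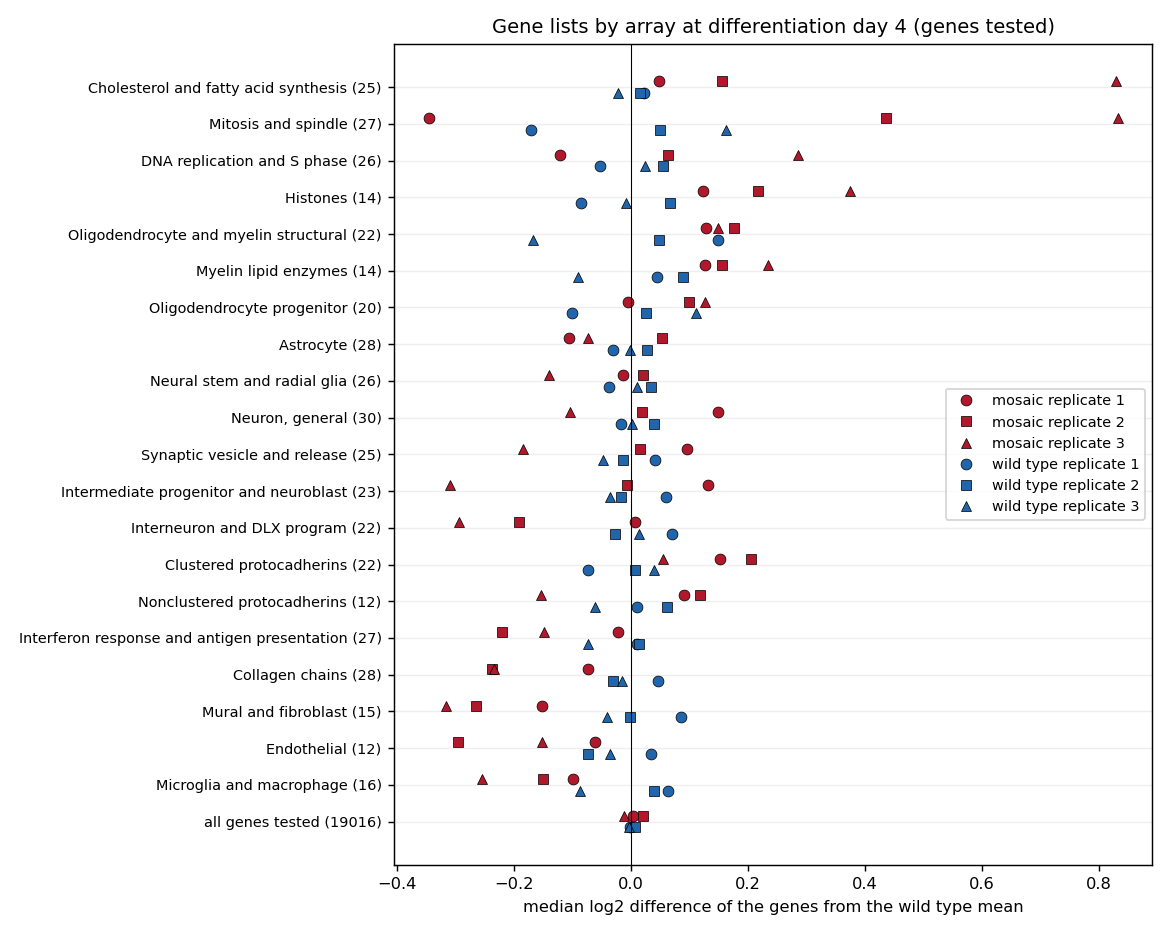
Median log2 difference from the wild type mean for the tested genes of 20 lists and for all genes, 1 point per array, with mosaic arrays above wild type arrays in each row and the number of genes in parentheses. Mosaic replicate 3 stands apart for cholesterol synthesis at 0.83, and mosaic replicates 1 and 3 lie on opposite sides of the wild type arrays for mitosis at -0.35 and 0.83.

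The mosaic cultures were also placed against the knockout cultures of day 4. In that comparison 0 of 19016 genes were called by limma, the smallest adjusted p was 0.453, and 1155 genes had an unadjusted p under 0.05. Knockout against wild type gave 0 calls with a smallest adjusted p of 0.0619 and 2411 genes at an unadjusted p under 0.05. The 3 comparisons share arrays, so their values are given side by side. Pcdh19 was 0.69 above knockout in mosaic cultures, while knockout was -1.20 from wild type. No gene was called with its mosaic level outside both genotypes in the same direction, and 434 had an unadjusted p under 0.05.

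All 3 mosaic arrays lay above all 3 knockout arrays for 806 genes, or 4.24%, and below them for 844, or 4.44%. Cholesterol and fatty acid genes had 5 of 25 above knockout and 0 below, with a median of 0.30, while knockout against wild type had a median of 0.05. Measured from the wild type mean, the list's median was 0.05, 0.16 and 0.83 in mosaic replicates 1, 2 and 3. In knockout replicates 1, 2 and 3 it was 0.05, 0.06 and 0.08, so mosaic replicate 3 stood apart here too. Myelin structural genes had 6 of 22 above knockout and 0 below, with a median of 0.26, and knockout against wild type had a median of -0.16. Gjc3 was 0.64 above knockout and Tspan2 0.56, and Erbb3, a neuregulin receptor, 0.55. Mosaic replicate 3 was the highest of the mosaic arrays for Gjc3 and Tspan2 and the lowest for Erbb3. Mitosis genes had a median of 0.44 against knockout, with 1 of 27 above and 0 below, and knockout against wild type had -0.13. By the list's median from the wild type mean, mosaic arrays spanned -0.35 to 0.83 and knockout arrays -0.43 to 0.02, with overlap. Collagen chains had a median of -0.0038 against knockout, and knockout against wild type had -0.20.

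At day 0, before differentiation, mosaic against wild type gave 0 calls with a smallest adjusted p of 0.772, and 817 genes had an unadjusted p under 0.05. The difference at day 4 minus that at day 0 gave 0 calls with a smallest adjusted p of 0.195, and 2354 genes at an unadjusted p under 0.05. Zfp972 had that adjusted p, with a difference of 1.33 at day 4 and -0.45 at day 0, where the groups overlapped. Pcdh19 differed by -0.78 at day 0, where it measured 6.03, 6.32 and 5.65 in mosaic and 6.85, 6.83 and 6.66 in wild type replicates 1, 2 and 3. All mosaic arrays lay below all wild type arrays at day 0. The clustered protocadherins had a median of -0.16 at day 0 and 0.13 at day 4, collagen chains 0.07 and -0.17, and cholesterol and fatty acid genes 0.11 and 0.33.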

How the data were processed

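Expression was measured on Affymetrix mouse gene arrays in 18 samples of 6 groups of 3. The deposited values are log2 expression values per probe set, as read from their range; their normalization, background correction and log base were not given in the sources used here, and the authors' scanner files were not used, so no background level was at hand. Of 41345 probe sets, 23521 had exactly 1 symbol in the platform annotation, 1814 had several and 16010 had none listed. Symbols were looked up in a RefSeq table (GRCm38.p6), which matched 23328 of the 23521. A linear model with 6 group means was fitted to all 18 arrays in R 4.3.3 with limma 3.58.1 (lmFit, eBayes; 12 residual and 4.36 prior degrees of freedom). Two-sided tests were adjusted by the Benjamini-Hochberg method over the 19016 genes tested, with calls made at adjusted p under 0.05. The rule for named genes was Pcdh19 and called genes that stood apart; since none was called, the other genes were chosen after their values were seen. The comparison and the gene lists were chosen with earlier results of these data known. The procedure was tested on simulated data.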

Additional observations from a re-analysis of the deposited data

How the results depend on the processing

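Over the alternatives tried, 0 genes were called between mosaic and wild type cultures at day 4 in most settings, replicate block included, which gave 0 calls in all 6 comparisons. Exceptions were variance trend with robust estimation, with 2 calls, both higher, and leaving out single arrays, which gave 0 to 262 calls, 0 to 138 higher and 0 to 124 lower. Leaving out single arrays gave 0 to 10 calls for mosaic against knockout (10 without mosaic replicate 1), 0 to 5 for knockout against wild type (5 without wild type replicate 3, 4 without knockout replicate 2), 0 to 1 at day 0 (without wild type replicate 2) and 0 to 1 for the day 4 minus day 0 difference (without wild type replicate 3 of day 4). Knockout against wild type had 1 call with quantile normalization, 1 with cyclic loess normalization and 2 with the filter at the 50th percentile. The day 4 minus day 0 difference had 1 call with variance trend and robust estimation and 1 with only the arrays of the groups compared. Genes with every mosaic array above every wild type array numbered 1118 with quantile normalization and 3198 with a common array median, and those below numbered 916 with a common array median and 924 with the filter at the 50th percentile. These counts and cyclic loess were added after seeing the data. Top2a, Mog and Ermn changed sign without mosaic replicate 3, with ranges over single arrays left out of -0.18 to 0.61, -0.74 to 0.15 and -0.51 to 0.36. The causes were not tested. Deviations of same-numbered mosaic and wild type arrays correlated across genes at 0.165, 0.029 and 0.0646 for replicates 1, 2 and 3. Differently numbered arrays correlated at -0.108 to 0.0522. Values this low cannot decide whether the replicate numbers pair the arrays, and the main fit did not pair them. Without detection calls or a background level, dim genes cannot be told from background.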
